A study of Homo sapiens with 18 samples.

Results

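The genes described here are 9 targets of the transcription factor NRF2 that supply, recycle or use the cell's thiol reductants. GCLC, GCLM and SLC7A11 serve glutathione synthesis, GSR, TXN, TXNRD1 and SRXN1 reduce disulfides and oxidised peroxiredoxins, and NQO1 and HMOX1 clear quinones and haem. They were taken by name, as every probe annotated to a listed gene, to follow the response of the 2 cell lines to 2 compounds that react with thiols. All 9 genes were annotated, with 15 probes, and all 15 probes passed the detection filter that kept 17652 of the 49576 probes. They make 9 of the 10697 genes tested. GCLC, GCLM, GSR, TXN, TXNRD1 and NQO1 have 2 probes each, and SLC7A11, SRXN1 and HMOX1 have 1.

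Raji and DG75 are established cell lines from Burkitt lymphoma, a B cell tumour, and Raji carries the Epstein-Barr virus while DG75 does not. Raji control, Raji with Bay-11 at 50 µM, Raji with TPCK at 75 µM, and the same 3 conditions of DG75 were each measured on 3 Illumina bead arrays after 1 h of culture, 18 arrays in all. Controls were incubated without either compound, and the labels do not state whether they received its solvent. Nor do they say that the 3 arrays of a group are 3 cultures, and the spread behind every p-value may be technical. DG75 with TPCK was taken from the titles and column names, since the design text lists TPCK for Raji alone.

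Arrays are named by the numbers that open their column names. Controls carry 13 to 18 and treated arrays 1 to 12, so anything that follows this numbering cannot be told apart from treatment. Between 13072 and 15903 probes were detected per array, the mean raw signal ran from 171.5 to 298.4, and arrays of a group correlated at 0.934 to 0.991. The B cell genes CD79A, CD79B, MS4A1, CD22, CD74 and CD37 were detected on 18 of 18 arrays. DG75 TPCK array 7 held transcripts of other tissues: the summed level of 10 fibroblast and epithelial genes was 19556 there and 209 to 333 on the other 17 arrays. On DG75 Bay-11 array 10, 165 of the 10697 genes lay over 2 log2 units below the mean of the other 2 arrays of their group, against 0 to 10 genes on any other array. In RNA from whole cultures, fewer expressing cells and less RNA per cell cannot be told apart.

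In unstressed cells, KEAP1 holds NRF2, encoded by NFE2L2, for ubiquitination and degradation. When electrophiles or oxidants modify cysteines of KEAP1, NRF2 escapes, enters the nucleus, pairs with small MAF proteins and binds antioxidant response elements. The genes it then raises restore glutathione and reduced thioredoxin, and BACH1 and BACH2 compete for the same elements as repressors.

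The promoters of GCLM and TXNRD1 are shown because they hold the core letters of the antioxidant response element. A match is a description and does not show that NRF2 binds there. RefSeq promoter windows on GRCh38.p14, with 250 bases before and 50 after the start of transcription, were found for 6 of the 9 genes, with 2 starts for TXNRD1. The core of the antioxidant response element, TGACNNNGC, read on both strands, lay in 3 of these 7 windows, those of GCLM and TXNRD1, against 13.3% of all 35116 promoter windows of this length. In the lines that follow, capitals mark the core as it reads on the printed strand.
GCLM, chr1:93909381-93909680, minus strand: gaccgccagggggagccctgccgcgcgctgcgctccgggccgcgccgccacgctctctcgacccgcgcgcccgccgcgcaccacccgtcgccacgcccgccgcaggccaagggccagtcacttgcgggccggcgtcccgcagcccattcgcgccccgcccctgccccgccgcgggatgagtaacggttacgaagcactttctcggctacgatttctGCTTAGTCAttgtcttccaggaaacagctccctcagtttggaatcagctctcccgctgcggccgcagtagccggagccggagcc
TXNRD1 first start, chr12:104215529-104215828, plus strand: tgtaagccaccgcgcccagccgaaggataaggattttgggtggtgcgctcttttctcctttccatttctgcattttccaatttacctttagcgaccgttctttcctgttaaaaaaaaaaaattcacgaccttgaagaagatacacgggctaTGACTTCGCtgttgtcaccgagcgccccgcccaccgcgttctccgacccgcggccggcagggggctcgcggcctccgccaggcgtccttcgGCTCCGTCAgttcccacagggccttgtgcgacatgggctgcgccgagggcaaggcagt
TXNRD1 second start, chr12:104286782-104287081, plus strand: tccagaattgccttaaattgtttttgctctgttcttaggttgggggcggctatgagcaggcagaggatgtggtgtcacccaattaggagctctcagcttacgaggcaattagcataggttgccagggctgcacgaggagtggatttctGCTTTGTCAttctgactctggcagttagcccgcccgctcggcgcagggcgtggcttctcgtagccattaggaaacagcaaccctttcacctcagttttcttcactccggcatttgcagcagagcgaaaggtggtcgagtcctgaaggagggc

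In GCLM the core opened 34 bases before the start, on the opposite strand. At the first TXNRD1 start the cores opened 99 and 8 bases before it, on opposite strands of each other, and at the second start 102 bases before it. The windows of GCLC, TXN, SRXN1 and NQO1 did not hold these letters, which says nothing of elements outside the window.

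After 1 h, none of the 9 genes was called changed by either compound in either line. Over the 36 pairs of a gene and a treatment, 0 passed limma's test at an adjusted p under 0.05, the lowest adjusted p was 0.165, and 2 had an unadjusted p under 0.05. The log2 changes ran from -0.45, for GCLC in DG75 after TPCK, to 0.57, for TXNRD1 in DG75 after Bay-11. Among all 10697 genes, 1.51% were called in Raji after Bay-11, 0.439% in Raji after TPCK, 0.617% in DG75 after Bay-11 and 0.495% in DG75 after TPCK. Few genes of any kind thus passed, and 0 of 9 does not set these genes apart from the rest.

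The precision of 3 arrays a group leaves room for small changes. On the brighter probe of each gene the 95% interval lay within 1 log2 unit of 0 in 35 of the 36 pairs. A change of 1 unit is a doubling or a halving. The exception was TXNRD1 in DG75 after Bay-11, whose interval ended at 1.19. The lowest bound on these probes was -0.83, for SLC7A11 in Raji after Bay-11. The 35 include HMOX1 in Raji, undetected on every Raji array, where the interval describes background and bounds no change. Some second probes left more room. In Raji after Bay-11 the second GCLM probe had an interval ending at 1.21, and that of TXNRD1 ran from -1.78 to 1.06. The median change of the 9 genes was -0.04 in Raji after Bay-11, -0.09 in Raji after TPCK, -0.02 in DG75 after Bay-11 and -0.01 in DG75 after TPCK. The medians of all genes tested were 0.01, 0.01, 0.05 and 0.02 in the same order.

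**Figure D1:**
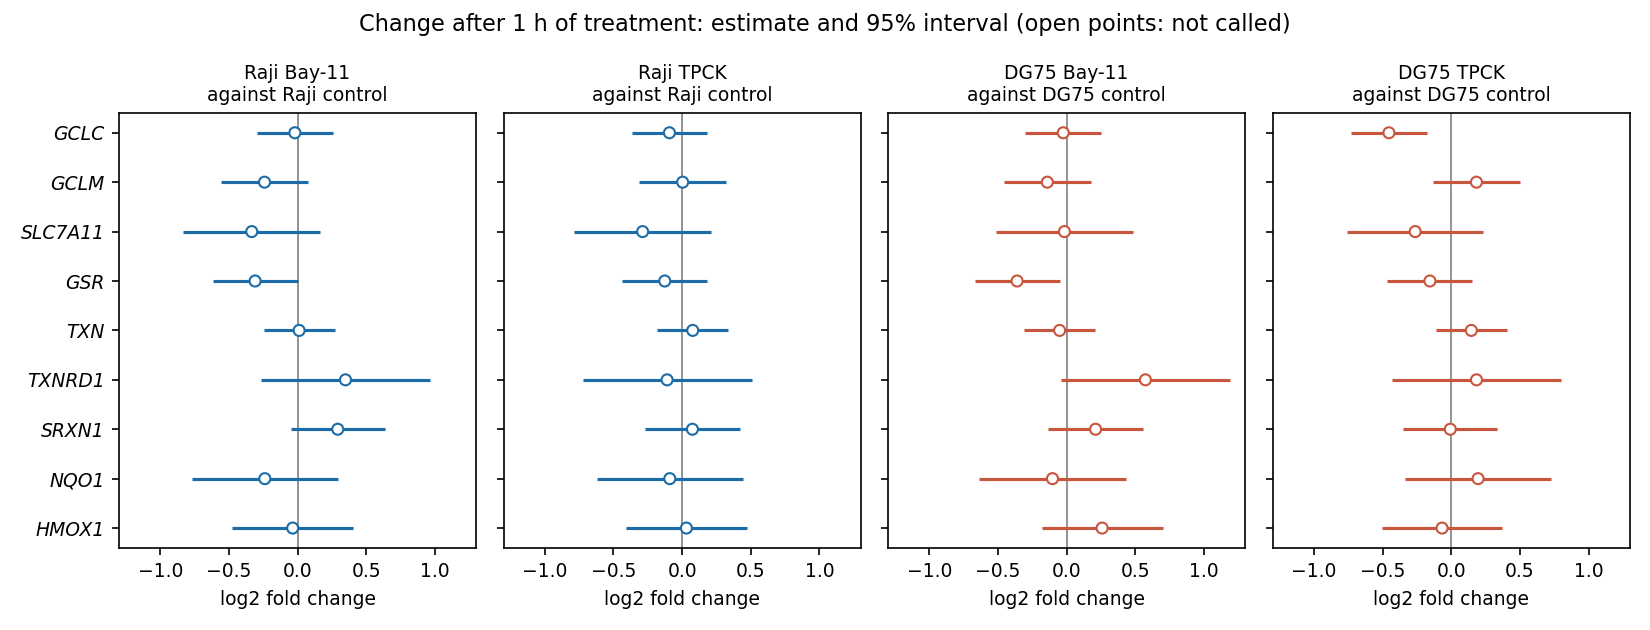
Log2 fold change of each gene after 1 h of treatment against the control arrays of the same line, 1 panel per comparison. Points are limma estimates for the brighter probe of each gene, bars are 95% intervals, and all 36 points are open because 0 were called. HMOX1 was undetected in Raji, so its Raji bars describe background. The interval of TXNRD1 in DG75 after Bay-11 is the 1 that passes 1 log2 unit.

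Glutathione synthesis begins with cystine import and the ligation of cysteine to glutamate. GCLC encodes the catalytic subunit of glutamate-cysteine ligase. In Raji its normalized log2 level averaged 7.13 ± 0.10 (SD, n = 3) on control arrays 16, 17 and 18, 7.11 ± 0.12 on Bay-11 arrays 4, 5 and 6 and 7.04 ± 0.12 on TPCK arrays 1, 2 and 3. The 3 Raji groups overlapped. In DG75 the controls (arrays 13, 14 and 15) stood at 7.95, 7.61 and 7.88, the Bay-11 arrays 10 and 12 at 7.75 and 7.60 with array 11 above every other, and the TPCK arrays 7, 8 and 9 at 7.42, 7.37 and 7.28.

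All 3 DG75 TPCK arrays thus lay below all 3 controls. The difference was -0.45 ± 0.13 (log2, SE, n = 3 arrays a group) with a 95% interval from -0.73 to -0.18, and its adjusted p of 0.165 missed the threshold. Groups that do not overlap are common: 17.5% of all genes separated in 1 direction or the other in this comparison. The second GCLC probe, detected on 5 of 18 arrays, gave -0.18. Without array 7 the difference of the brighter probe was -0.49.

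GCLM, the modifier subunit of the same ligase, averaged 8.62 ± 0.09 (SD, n = 3) in Raji controls, 8.38 ± 0.18 after Bay-11 and 8.63 ± 0.10 after TPCK. The change after Bay-11 was -0.24 ± 0.15 (adjusted p = 0.406), with array values of 8.17 to 8.52, just below the 8.52 to 8.70 of the controls. Its second probe went the other way there, at 0.39. In DG75 the means were 8.20 ± 0.17 in controls, 8.06 ± 0.12 after Bay-11 and 8.38 ± 0.29 after TPCK, and the groups overlapped.

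SLC7A11 encodes the cystine importer xCT. Its 3 Raji controls spread widely, at 5.27, 6.28 and 6.31, and enclosed all 6 treated arrays, which lay between 5.54 and 5.92. The estimates were -0.33 ± 0.23 after Bay-11 and -0.29 ± 0.23 after TPCK, and -0.02 and -0.26 in DG75. None of the 4 was called.

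The reductases turn over the electrons that keep glutathione and thioredoxin usable. GSR, glutathione reductase, stood at 7.39, 7.61 and 7.47 on Raji controls, 7.10, 7.49 and 6.95 after Bay-11 and 7.25, 7.34 and 7.51 after TPCK. In DG75 it stood at 8.95, 8.85 and 8.88 on controls, 8.38, 8.51 and 8.71 after Bay-11 and 8.58, 8.93 and 8.69 after TPCK. After Bay-11 the estimate was below control in both lines, by -0.31 ± 0.15 in Raji (adjusted p = 0.267) and by -0.36 ± 0.15 in DG75 (adjusted p = 0.206). In DG75 all 3 Bay-11 arrays lay below all 3 controls, the 1 such gene of the 9, while the groups of 19.3% of all genes did not overlap in that comparison. In Raji they overlapped.

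The second GSR probe gave estimates of the same sign, -0.41 in Raji and -0.17 in DG75. The estimate for TPCK in Raji depended on the scaling: it was -0.13 ± 0.15 after quantile normalization and 0.63 (adjusted p = 0.0462) with no normalization between arrays, where the median of all genes was 0.66. Measured against that median, GSR again lay slightly below the other genes.

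TXN encodes thioredoxin itself and had the smallest standard error of the 9 genes. Its changes were 0.01, 0.08, -0.05 and 0.15, in the order Raji Bay-11, Raji TPCK, DG75 Bay-11 and DG75 TPCK, each with an SE of 0.12. SRXN1, sulfiredoxin, which repairs overoxidised peroxiredoxins, stood at 8.31, 8.11 and 8.33 on Raji controls and at 8.56, 8.46 and 8.61 after Bay-11. All 3 Bay-11 arrays of Raji exceeded the controls, and the difference of 0.29 ± 0.16 had an adjusted p of 0.343. In that comparison the groups of 31% of all genes did not overlap, and of the 9 genes SRXN1 separated upward and GCLM and NQO1 downward.

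After TPCK, SRXN1 in Raji was at 8.11, 8.30 and 8.57, within reach of the controls. In DG75 it was at 8.50, 8.57 and 8.61 on controls, 8.87, 8.87 and 8.58 after Bay-11 and 8.17, 8.62 and 8.88 after TPCK. The DG75 changes were 0.21 ± 0.16 and -0.01 ± 0.16. In Raji after TPCK the groups of 0 of the 9 genes were separate, against 15.9% of all genes.

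TXNRD1 encodes cytosolic thioredoxin reductase, a selenoprotein. The brighter of its probes read 8.68, 8.93 and 8.69 on Raji controls, 9.27, 8.73 and 9.35 after Bay-11 and 8.83, 8.50 and 8.65 after TPCK. In DG75 it read 9.22, 9.05 and 9.22 on controls, 10.26, 9.89 and 9.07 after Bay-11 and 9.13, 8.86 and 10.07 after TPCK. Raji arrays 4 and 6 and DG75 arrays 10, 11 and 9 therefore lay above every control of their line, and the remaining treated arrays did not. The changes after Bay-11 were 0.35 ± 0.29 in Raji (adjusted p = 0.554) and 0.57 ± 0.29 in DG75 (adjusted p = 0.298).

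The absence of a call in DG75 rests on array 12. Without it the change was 0.91 ± 0.27 and was called at an adjusted p of 0.0482, while the number of genes called in that comparison went from 66 to 1061. Without array 10, which carries the highest TXNRD1 value and the many low genes described at the outset, it was 0.31 ± 0.30 (adjusted p = 0.759).

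The second TXNRD1 probe, annotated to another transcript of the gene, gave -0.36 in Raji after Bay-11, against the sign of the first. In DG75 after Bay-11 it gave -1.05, which rests on array 10, where it was undetected (4.69). It read 8.96 and 8.25 on arrays 11 and 12 against 8.27 to 8.50 on controls, and without array 10 its difference was 0.25, of the same sign as the first probe. After TPCK both probes had the same sign, -0.11 and -0.42 in Raji and 0.18 and 0.12 in DG75.

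**Figure D2:**
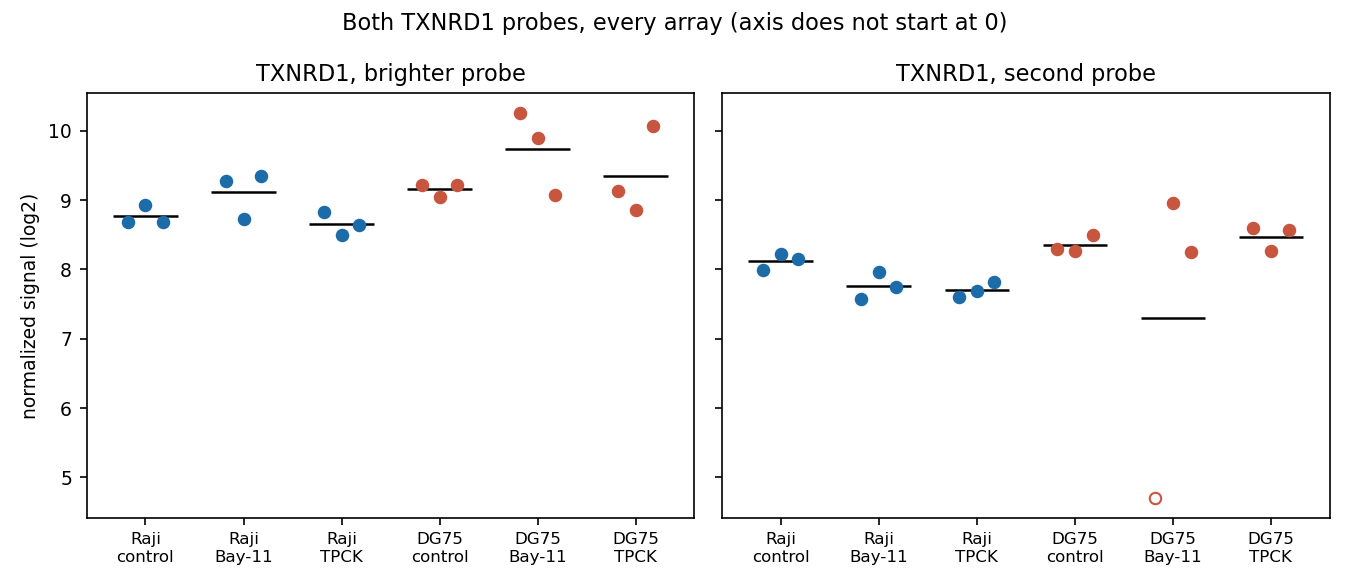
Normalized log2 signal of both TXNRD1 probes on every array, by group; bars are group means of 3 arrays, and open points mark arrays where the probe was not detected. The brighter probe is above all controls of its line on 2 of 3 Bay-11 arrays in each line, and the second probe is undetected on DG75 Bay-11 array 10.

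On DG75 arrays 9, 10 and 11, where the brighter TXNRD1 probe was high, SRXN1 was at 8.88, 8.87 and 8.87 and HMOX1 at 5.33, 5.30 and 5.50. Arrays 8 and 12 had 8.62 and 8.58 for SRXN1 and 4.34 and 4.95 for HMOX1. Array 7 did not follow: SRXN1 was at 8.17, its lowest DG75 value, while HMOX1 was detected at 5.11 and TXNRD1 stood at 9.13. After group means were removed, the correlations over 18 arrays were 0.68 for TXNRD1 with HMOX1, 0.49 for TXNRD1 with SRXN1 and 0.05 for SRXN1 with HMOX1. HMOX1 was detected on 5 of the 18 arrays, so its correlations rest in part on background. Other pairs of members had values as large, such as -0.77 for SRXN1 with NQO1 and 0.66 for GCLM with NQO1. All are descriptions of arrays that share their libraries and their scaling, and TXNRD1, SRXN1 and HMOX1 did not move as 1 group.

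Detoxification was represented by NQO1, a quinone reductase, and HMOX1, haem oxygenase. NQO1 in Raji read 10.23, 10.21 and 10.18 on controls, 10.04, 9.99 and 9.87 after Bay-11 and 10.14, 10.35 and 9.86 after TPCK. The Bay-11 arrays all lay below the controls, by -0.24 ± 0.25 on average (adjusted p = 0.657). In DG75 it read 7.54, 7.61 and 7.20 on controls, 7.53, 7.12 and 7.39 after Bay-11 and 8.47, 7.34 and 7.12 after TPCK.

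The value of 8.47 belongs to array 7, the array with transcripts of other tissues. With it the change after TPCK was 0.20 ± 0.25, and without it -0.22 ± 0.17, neither called. The part of those other transcripts in the NQO1 value was not tested.

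HMOX1 was near the limit of detection. It was undetected on all 9 Raji arrays and detected on DG75 arrays 13, 10, 11, 7 and 9. In DG75 the controls read 5.27, 4.96 and 4.75, the Bay-11 arrays 5.30, 5.50 and 4.95 and the TPCK arrays 5.11, 4.34 and 5.33, and the groups overlapped. The changes were 0.26 ± 0.21 after Bay-11 and -0.07 ± 0.21 after TPCK. In Raji the probe was not above background in any group, which sets only an upper bound there.

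**Figure D3:**
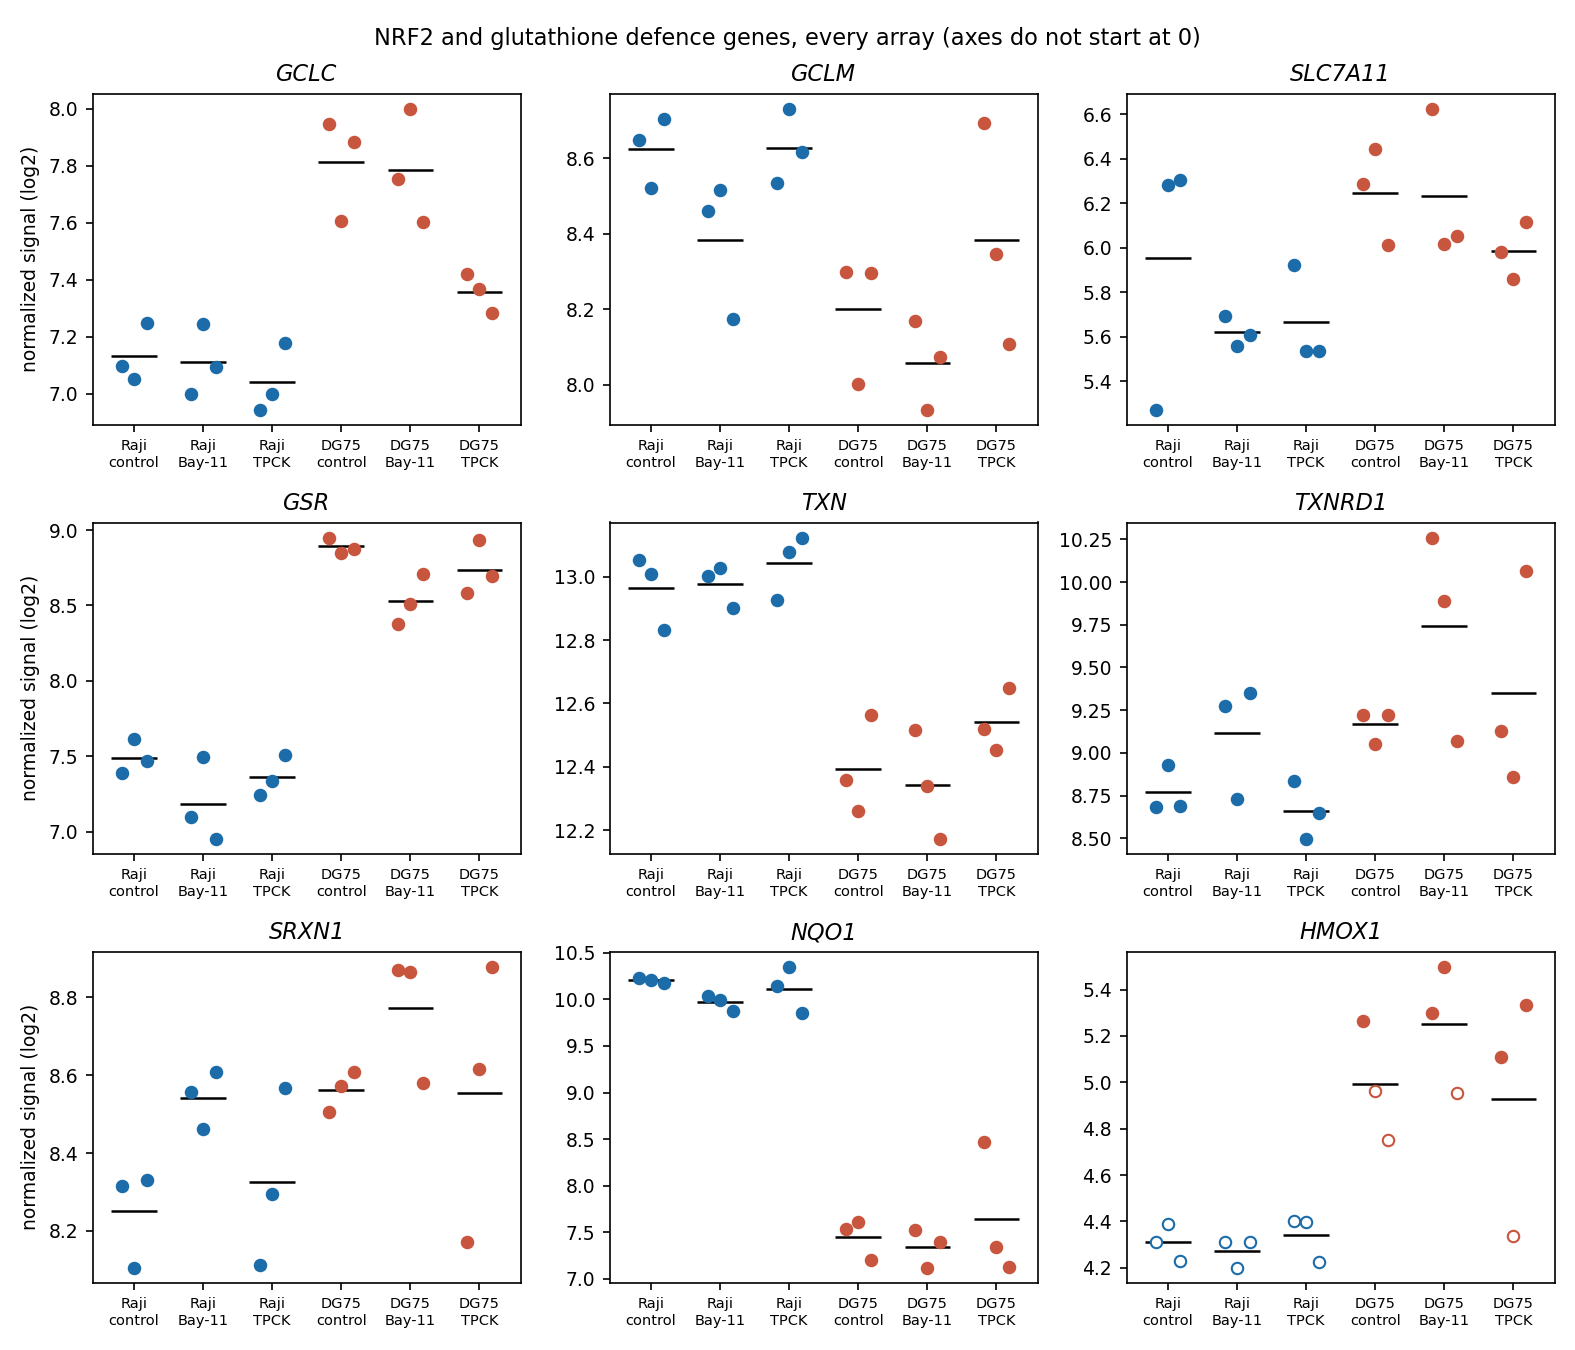
Normalized log2 signal of the 9 genes (the brighter probe of each) on every array, by group, with a separate axis per gene; bars are means of 3 arrays, and open points mark arrays where the probe was not detected. The difference between untreated lines is larger than any change after treatment for NQO1, GSR, GCLC, TXN, GCLM and, narrowly, SRXN1. It is not for TXNRD1 and SLC7A11. HMOX1 is undetected in Raji, so its difference between the lines has no measured size.

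The 2 compounds were also compared with each other, at 75 µM TPCK and 50 µM Bay-11, doses that differ. None of the 9 genes was called in Raji, where 0.271% of all genes were, or in DG75, where 0.187% were. The values nearest to a call were in DG75, with TPCK relative to Bay-11. GCLC was -0.43 ± 0.13 (adjusted p = 0.348) and GCLM 0.32 ± 0.15 (adjusted p = 0.464). GCLM read 8.69 on TPCK array 7 against 8.35 and 8.11 on arrays 8 and 9. Without array 7 its difference was 0.17. In Raji the widest estimates were -0.46 ± 0.29 for TXNRD1 and 0.24 ± 0.15 for GCLM. A missed threshold does not show that the compounds act alike, and the 95% interval for TXNRD1 ran from -1.07 to 0.16 in Raji.

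Whether the lines differed in their response was tested as a difference of differences. None of the 9 genes was called for Bay-11 or for TPCK, as was 0% of all genes in each test. Unadjusted p-values under 0.05 were reached by 692 and 595 of the 10697 genes, and by 0 of the 9 in either. The largest difference was -0.36 ± 0.18 for GCLC after TPCK (DG75 minus Raji, adjusted p = 0.913).

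More of these genes differed between the untreated lines than between treated cells and their controls. Of the 9 genes 6 were called between DG75 and Raji controls, where 38.9% of all genes were called: GSR, GCLC and HMOX1 were higher in DG75 and NQO1, TXN and GCLM lower. The control arrays of 8 of the 9 genes did not overlap, 5 higher and 3 lower in DG75, against 55.5% of all genes. The median difference was 0.31, against 0.03 for all genes, and the genes did not move as a block.

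NQO1 differed most. It averaged 10.21 ± 0.02 (SD, n = 3) in Raji controls and 7.45 ± 0.22 in DG75 controls, a difference of -2.76 ± 0.25 (SE, adjusted p = 1.4e-07) or 6.76-fold lower in DG75. The second NQO1 probe was detected on all 9 Raji arrays and on 0 of 9 DG75 arrays, and gave at least 1.58-fold lower in DG75. On the brighter probe the 9 Raji arrays, treated ones included, ran from 9.86 to 10.35 and the 9 DG75 arrays from 7.12 to 8.47, without overlap.

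GSR went the other way. It averaged 7.49 ± 0.11 in Raji and 8.89 ± 0.05 in DG75, 1.40 ± 0.15 higher (adjusted p = 7.53e-07), or 2.64-fold. The second probe gave 0.46. GCLC was 0.68 ± 0.13 higher in DG75 (adjusted p = 4.99e-04) while GCLM, its partner in the ligase, was 0.42 ± 0.15 lower (adjusted p = 0.0323), and the second probe of each had the same sign. The GCLM call is the weaker: without array 14, 16 or 18 its adjusted p was 0.143, 0.0807 or 0.0943, and it was lost with median centring (-0.36) and with no normalization (-0.09).

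TXN was 0.57 ± 0.12 lower in DG75 (adjusted p = 0.00126), and its second probe gave -0.55. This call was lost with no normalization between arrays, at -0.43, where the median of all genes was 0.25. HMOX1 was called at 0.68 ± 0.21 (adjusted p = 0.015), but it was undetected on all Raji controls and detected on 1 of 3 DG75 controls, so no fold is given, and without array 13 its adjusted p was 0.0786. TXNRD1 at 0.40 ± 0.29, SRXN1 at 0.31 ± 0.16 and SLC7A11 at 0.29 ± 0.23 were not called. With only the control arrays in the fit TXNRD1 and SRXN1 were called, at adjusted p = 0.0237 and 0.0460.

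Across the 6 genes with 2 probes, both probes gave the same sign in 6 of 6 cases between the lines and in 14 of 24 cases between treatments and controls.

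The factors that set NRF2 activity were looked at next, 10 measured of 13 listed. NFE2L2, which encodes NRF2, changed by -0.16, -0.13, 0.26 and 0.05 in the 4 treatments, and KEAP1 by 0.27, 0.07, -0.53 and 0.17, none called. The KEAP1 value in DG75 after Bay-11 came with 6.74 on array 10 against 8.59 and 8.22 on arrays 11 and 12. The 1 call was NFE2L1, an NRF2 relative that drives proteasome genes, which rose by 0.64 ± 0.15 in Raji after Bay-11 (adjusted p = 0.0492), from 8.20, 7.91 and 7.89 to 8.66, 8.40 and 8.87. It was not called in 9 of 18 alternatives: when array 4, 6, 16, 17 or 18 was left out, with an adjusted p of up to 0.271, with median centring, with no filter on dim probes, with probes tested singly and with only the groups compared. MAFG, a small MAF gene, had the largest estimate of the 10 in that comparison, 0.70, and was not called. It read 5.81, 5.84 and 5.81 on Raji controls and 6.52, 6.49 and 6.55 after Bay-11. On DG75 Bay-11 arrays 10, 11 and 12 it read 4.41, 6.36 and 6.19, and all groups share 1 estimate of the spread. Of the 10 regulators 4 separated upward and 1 downward in Raji after Bay-11, against 31% of all genes in either direction.

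Between the untreated lines 1 of the 10 regulators was called. BACH2, a transcriptional repressor of B cells, was at least 1.79-fold higher in DG75 (adjusted p = 1.07e-04), as its probe was undetected on Raji controls. NFE2L2 and KEAP1 differed by 0.04 and 0.07, not called.

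Of 32 other NRF2 targets 15 were measured, and 0 were called after any treatment. The medians were -0.005, -0.02, -0.02 and 0.13. The changes ran from -1.13 to 0.70, -1.19 to 0.19, -0.66 to 1.10 and -0.84 to 0.75 in the same order. TRIM16L was lowest in Raji, detected on 3 controls and on 0 arrays after either compound, so -1.13 and -1.19 set its controls against background. It was also lowest in DG75 after TPCK, detected on 3 controls and on 1 TPCK array. FTL was lowest in DG75 after Bay-11, with 11.48 on array 10 against 14.02 and 13.66 on arrays 11 and 12. SLC48A1 was highest after Bay-11 in both lines, and in DG75 read 4.73, 5.11 and 5.28 on controls and 6.80, 6.16 and 5.46 after Bay-11. It was the 1 target of the 15 that separated upward after Bay-11 in each line. Groups of 31% of all genes in Raji and 19.3% in DG75 did not overlap there. Between the lines 8 were called, 1 higher and 7 lower in DG75, with a median of -0.43. UGDH, which makes UDP-glucuronic acid, was -1.40 ± 0.47, PGD of the pentose phosphate pathway -1.08 ± 0.29, biliverdin reductase BLVRB -1.05 ± 0.17 and the haem transporter SLC48A1 -0.98 ± 0.27. UGDH control arrays read 8.64, 8.81 and 9.01 in Raji and 7.59, 7.34 and 7.33 in DG75. The UGDH call was lost without array 14, 15, 17 or 18, with an adjusted p of up to 0.0751. All groups share 1 estimate of the spread, and UGDH read 9.99 on DG75 TPCK array 7 against 7.34 and 7.18 on arrays 8 and 9. Over the 16 alternatives its adjusted p ran from 1.85e-07 to 0.114. With no normalization between arrays UGDH, BLVRB and SLC48A1 were not called, at adjusted p = 0.114, 0.0539 and 0.119.

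Of 33 other genes of glutathione chemistry 27 were measured. After treatment 1 was called: CHAC1, which degrades glutathione, was at least 1.07-fold higher in Raji after TPCK (adjusted p = 0.0369), undetected on the controls at 4.34, 4.34 and 4.23 and detected at 5.30, 4.91 and 5.41. The call was lost in 8 of 16 alternatives: when array 1, 3, 16, 17 or 18 was left out, with an adjusted p of up to 0.172, with an offset of 50, with limma-trend and with median centring, where the adjusted p was 0.443. In DG75 the CHAC1 values were 4.48, 5.16 and 4.59 on controls, 5.55, 5.72 and 5.30 after Bay-11 and 5.39, 5.38 and 5.33 after TPCK. The probe was detected on 1 of 3 DG75 controls. The treated arrays lay above the controls with neither comparison called (adjusted p = 0.0575 after Bay-11 and 0.165 after TPCK), and 19.3% of all genes did not overlap after Bay-11 and 17.5% after TPCK.

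Between the lines 17 of the 27 were called, 12 higher and 5 lower in DG75, with a median of 0.43. The microsomal glutathione transferases MGST2 and MGST1 were 2.91 ± 0.16 and 2.87 ± 0.19 higher, the peroxidase GPX7 2.82 ± 0.15 and the cytosolic transferase GSTP1 2.43 ± 0.14. All 9 DG75 arrays stood above all 9 Raji arrays for each of these 4, with GSTP1 at 10.41 to 10.98 in Raji and 13.03 to 13.26 in DG75.

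All 17 measured genes of the other thioredoxin and peroxide enzymes, of 20 listed, were without a call after treatment. Between the lines 3 were higher and 4 lower in DG75, with a median of 0.08. The methionine sulfoxide reductase MSRA was at least 1.49-fold higher and the thioredoxin-like TXNL1 0.94 ± 0.19 higher. MSRB2, which reduces the other form of methionine sulfoxide, was -1.12 ± 0.30 and the sestrin SESN1 -0.99 ± 0.22. Both calls were lost with no normalization between arrays, at adjusted p = 0.107 and 0.172.

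**Figure D4:**
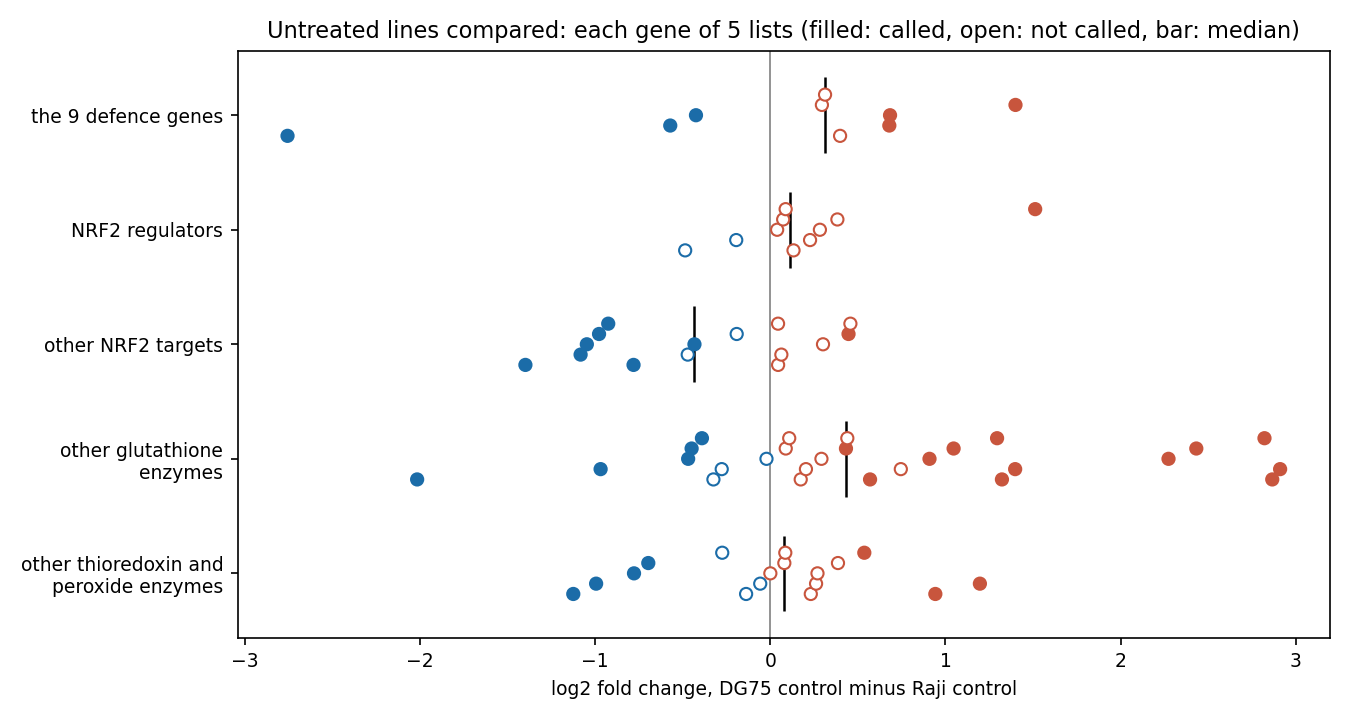
Log2 fold change of each measured gene between DG75 control and Raji control arrays, for the 9 genes and 4 lists of related genes; filled points were called, open points were not, and the bar is the list median. NQO1 at -2.76 is the lowest point of its row and GSR at 1.40 the highest, and 12 of 27 glutathione genes are called on the right.

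For each gene the 3 genes with the most similar profile over the 18 arrays were found by Pearson's r, as a description. The difference between the lines is part of every such r, and all genes share the arrays. NQO1 was most like ICA1 (0.996), TSPO (0.994) and CD151 (0.994), and GSR most like TRAF3IP2 (0.985), AGPS (0.983) and SLC16A7 (0.983). GCLC was most like NIN (0.958), RALGAPA1 (0.949) and GLYATL2 (0.937), and TXN most like IMPA2 (0.955), SMPDL3A (0.953) and SERF1B (0.952).

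TXNRD1, not called between the lines, was most like the chaperone gene HSP90AB1 (0.958), SLC5A6 (0.955) and CNTRL (0.954). Within each line its r with HSP90AB1 was 0.924 over the 9 Raji arrays and 0.979 over the 9 DG75 arrays. HSP90AB1 was picked on these same arrays, so the 2 values are no separate support. High r within lines was not particular to TXNRD1: NQO1 with ICA1 had 0.894 in Raji and 0.944 in DG75. TXN with IMPA2 had 0.399 in Raji and 0.754 in DG75. GCLM was most like HAVCR2 (0.871), CXCL9 (0.863) and MSRB2 (0.862). SRXN1 was most like GBA2 (0.899), L3MBTL2 (0.891) and ERCC3 (0.890), SLC7A11 most like ZNF688 (0.844), TMOD3 (0.844) and PEX19 (0.838), and HMOX1 most like SMC2 (0.930), IFT172 (0.929) and PHYHD1 (0.925). For HMOX1 the r within Raji was 0.376 for SMC2, where HMOX1 was undetected.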

How the data were processed

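Raw bead signals were deposited as log2 values, not normalized, each with a detection p-value for the probe, per the file headers. Scanner software and build: not given in the sources used here. Signals were corrected with normexp from the detection p (offset 16) and brought to common quantiles by neqc (limma 3.58.1, R 4.3.3). Probes detected (p under 0.01) on at least 3 arrays were kept, and the kept probe with the highest mean stood for a gene. One linear model of 6 group means was fitted to 18 arrays with lmFit and eBayes of limma (12 residual and 4.26 prior degrees of freedom). P-values were adjusted by the Benjamini-Hochberg method over 10697 genes per comparison, and those under 0.05 are called. The number of arrays limits the precision.

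Names came from the platform annotation, in which 17109 probes have 1 gene symbol, 3 have several and all others are unnamed here. A probe undetected on all arrays of a group has only a bound there, and "at least" sets the brighter mean against the dim mean, where each array counts with its lowest detected signal if that exceeds the probe. Members, lists and tests were chosen with earlier results of these data known. Named were the 9 members, up to 4 called genes with the largest change per other list and comparison, and for each member the 3 genes most like it. NFE2L2, KEAP1 and MAFG, TRIM16L, FTL and SLC48A1 after treatment, CHAC1 in DG75, and the genes named in the closing section outside this rule, were added after their values were seen.

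A second deposited table of processed log2 values, which carries replicate numbers, was an alternative. Column medians for replicates 1 to 3 were -0.04, -0.11 and -0.09 (Raji control), 0.09, 0.15 and -0.05 (Raji Bay-11), 0.06, 0.15 and -0.03 (Raji TPCK), 6.25, 6.13 and 5.93 (DG75 control), 0.12, 6.41 and 6.09 (DG75 Bay-11) and 6.70, 6.07 and 6.43 (DG75 TPCK). The 10 columns near 0 hold blanks and were centred in a way that is unknown, and the other 8 equal raw columns. For Raji TPCK and Raji Bay-11, columns with the same number deviated from their group means together (r of 0.140, 0.128 and 0.239). Columns with different numbers gave r of -0.141 to 0.027 there. The numbers were taken as pairs there from the values and not from the labels, and the pairing is uncertain. The replicate block, however, also covered the Raji controls, and DG75 control with TPCK. Same-numbered columns gave r of 0.070, -0.165 and -0.019 for Raji Bay-11 with control. Columns with different numbers ran from -0.236 to 0.206 in that comparison, so values of this size also arise without a shared number. For Raji TPCK with control same-numbered columns gave 0.033, -0.057 and 0.062, and for DG75 TPCK with control 0.014, 0.021 and -0.065. No pairing was seen in these comparisons with controls. Other alternatives changed the normalization, background correction, offset, filter, probe rule, arrays fitted and variance prior, or left out arrays.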

Additional observations from a re-analysis of the deposited data

How the results depend on the processing

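For the 9 genes, 613 of 622 treatment values under the alternatives kept the absence of a call, as did all 696 values for TPCK against Bay-11 and for differences between lines, and 132 of 143 values between the untreated lines kept their side of the threshold and direction. HMOX1 could not be tested with detection required on all 3 arrays of a group, nor on the processed Raji values. With no normalization between arrays 4 genes were called in Raji after TPCK, GCLM at 0.75, TXN at 0.62, SRXN1 at 0.83 and GSR at 0.63, the last against its own direction, where the median of all genes was 0.66. On the authors' processed values TXNRD1 (0.63, adjusted p = 0.0372) and SRXN1 (0.62, adjusted p = 0.0258) were called in Raji after Bay-11, where 1661 of 8000 genes were and the median was 0.19. Median centring took HMOX1 between the lines to 0.35, not called.

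Counts of called genes moved as follows. Median centring gave 35 in Raji after Bay-11, 30 in DG75 after Bay-11 and 1 for the Bay-11 difference between lines. No normalization gave 640 and 5059 in Raji after Bay-11 and TPCK, 10 and 13 in DG75, 3 and 5 for TPCK against Bay-11 and 2598 between the lines. Fits of only the groups compared gave 413 in Raji after Bay-11, 4 and 26 in DG75 and 0 for TPCK against Bay-11 in DG75. Without arrays 7 and 10 they were 487 in Raji after Bay-11, 35 in DG75 after Bay-11, 65 for TPCK against Bay-11 in Raji and 3 for the Bay-11 difference. An offset of 50 gave 47 for TPCK against Bay-11 in Raji and 2 for the Bay-11 difference, which was also 2 with raw quantile-normalized signal and with limma-trend. Probes tested singly gave 66 for TPCK against Bay-11 in Raji and 4 and 1 for the differences between lines. Leaving out 1 array at a time gave 27 to 202 in Raji after Bay-11, 19 to 26 after TPCK, 15 to 1061 and 28 to 39 in DG75, 7 to 24 and 12 to 30 for TPCK against Bay-11, 3520 to 3760 between the lines and 0 to 1 and 0 for the differences.

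The processed table gave 1661 and 181 in Raji after Bay-11 and TPCK, 245 for TPCK against Bay-11 and 4 in DG75 after TPCK. With the replicate block these were 1695, 196, 188 and 96, and the block changed no call of the 9 genes. Of these counts, 1695, 196 and 96 are for comparisons whose numbers showed no pairing. Raw columns carry no replicate number, and DG75 after Bay-11 and the comparisons of lines could not be run on this table, whose columns do not share a scale. The cause of these movements was not tested. Signals of HMOX1 and of the second GCLC and NQO1 probes lie near background, which limits what can be said of them.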

Other observations

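Beside the 4 genes named above, the other NRF2 targets called lower in DG75 controls than in Raji controls were the sugar phosphate enzymes TKT at -0.93 ± 0.19 and TALDO1 at -0.78 ± 0.12 and the isocitrate dehydrogenase IDH1 at -0.43 ± 0.16, in a comparison that called 38.9% of all genes. TKT and TALDO1 lost the call with no normalization between arrays. The IDH1 call was lost with median centring, with no normalization and without array 13, 14, 15, 16 or 18. ABCC2, an exporter of glutathione conjugates, was the 1 other NRF2 target called higher (adjusted p = 0.0329). Its probe was undetected on all Raji controls and detected on 1 DG75 control, so no fold is given, and the call was lost in 8 of 16 alternatives, array 13, 14, 16 or 18 left out among them.

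The 5 glutathione genes called lower in DG75 were MGST3 at -2.02 ± 0.33, the glyoxalase GLO1 at -0.97 ± 0.12, GGCT at -0.47 ± 0.15, the glutaredoxin GLRX at -0.45 ± 0.15 and the peroxidase GPX1 at -0.39 ± 0.13. MGST3 thus went against MGST1 and MGST2, which were called higher, and GLRX against its mitochondrial relative GLRX2 at 0.91 ± 0.15. The calls of GGCT, GLRX and GPX1 were each lost without 3 or more of the 6 control arrays in turn and with no normalization between arrays, and that of GPX1 also with median centring and with only the groups compared, while those of MGST3 and GLO1 were kept in all 6 cases. These genes were chosen after their values were seen.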
